A study of Rattus norvegicus with 42 samples.

Results

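The rat cytochrome P450 genes of families 1 to 4 were described in liver across glucocorticoid receptor (GR) binding, elongating RNA polymerase and RNA. A gene was a member when its name in the polymerase table was Cyp, a digit from 1 to 4, a single letter and a number, so the rule used names and no measured value. It found 52 genes of 21 subfamilies among 26426 named genes, and all 52 had an entry under their Ensembl identifier among the 22929 genes of the RNA count table. Cyp2ab1 was left out because its subfamily has a 2-letter name. More than 10 reads over the 12 RNA libraries were counted for 44 members, and 44 members, not all of them the same, had tags in at least 1 polymerase library.

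P450 enzymes are membrane-bound haem proteins of the endoplasmic reticulum that use electrons passed on by the reductase Por to oxidise their substrates. Families 1 to 3 are best known for drugs, toxins and steroids, and family 4 for the omega-hydroxylation of fatty acids and eicosanoids. Several of these genes are classical targets of liver sensors, with Ahr acting on Cyp1a, Nr1i3 (CAR) on Cyp2b, Nr1i2 (PXR) on Cyp3a and Ppara on Cyp4a genes. In the rat some are sex-biased under the control of growth hormone, Cyp2c11 and Cyp2c13 being enriched in males and Cyp2c12 in females. The genes lie in clusters of closely similar copies, so reads can be shared or lost between neighbours, and values of single Cyp2a, Cyp2b, Cyp2c, Cyp3a and Cyp4f genes carry that uncertainty.

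All samples were livers of adrenalectomised male Sprague Dawley rats infused intravenously for up to 180 min. The rats had been given dexamethasone at surgery and corticosterone (CORT) in their drinking water during recovery, withdrawn before the infusion, so VEH animals were depleted of CORT only from then on. One set of rats received CORT in pulses spaced an hour apart (PULS) and another a steady flow of it (CONS), with vehicle (VEH) as the control. Chromatin was taken at a pulse peak (PEAK_140), at the trough 40 min later (NADIR_180) and at the same times of the constant infusion (CONS_140, CONS_180), with 2 libraries a group, each from a pool of 6 rats. The VEH chromatin group held 1 library from 140 min and 1 from 180 min, so time and spread cannot be told apart within it. Both were given vehicle in the pulsatile pattern, so every CONS_140 and CONS_180 change in chromatin was measured against pulsatile vehicle, and the infusion pattern and the CORT cannot be told apart there. RNA was taken at 180 min with 3 libraries in each of 4 groups, PULS_VEH, PULS_CORT, CONS_VEH and CONS_CORT, so that the pulsatile RNA samples belong to the trough. The age of the rats was not given in the sources used here.

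Totals were 3956379 to 7777219 counted reads in the RNA libraries, 4938473 to 9326927 tags in the pSer2 Pol2 libraries and 2051977 to 6715803 in the GR libraries. P450 members took 1.95% to 2.83% of the RNA reads. The summed RNA level of 7 hepatocyte markers was 138500 to 187400 CPM (reads scaled to library size) in all 12 libraries and none of the 7 was called, whereas lymphocyte markers were near 0, with sums of 0.362 to 1.54 CPM. Of 6 genes of hepatocytes near the portal tract, Ass1, Cps1 and Sds were raised in both infusions, and the summed level of the list was 7582 to 10660 CPM in the 6 VEH libraries and 15490 to 22960 CPM in the 6 CORT libraries. That list holds 1 member of this set, Cyp2f4. Of 6 genes of hepatocytes near the central vein, 2 were called in PULS (Oat raised, Lgr5 lowered) and 1 in CONS (Slc1a2 raised). No macrophage, endothelial, bile duct, lymphocyte or red cell marker was called. In the constant infusion the stellate markers Rgs5 and Dcn were raised and Pdgfrb was lowered, while the summed level of that list was 405 to 527 CPM in CONS_VEH and 372 to 398 CPM in CONS_CORT. In whole liver, fewer cells of a type and less RNA per cell cannot be told apart, and the part of zonation or cell makeup in the P450 values was not tested.

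A feature was called when its adjusted p was under 0.05 and its change exceeded 1.5-fold, 0.585 on the log2 scale. RNA counts were tested with edgeR and log2 values of the chromatin tables with limma, in each case over all libraries of the assay. In the RNA of pulsatile animals at the trough, 4 of the 44 members were raised and 0 lowered, against 1.79% raised and 2.44% lowered of the 14092 genes tested. In the constant infusion, 3 members were raised and 8 lowered, against 4.45% and 4.75% of all genes. The median fold change (log2) of the members was 0.24 in PULS and -0.12 in CONS, beside -0.01 and -0.01 over all genes. Cyp2j10 was the member called in both infusions.

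**Figure D1:**
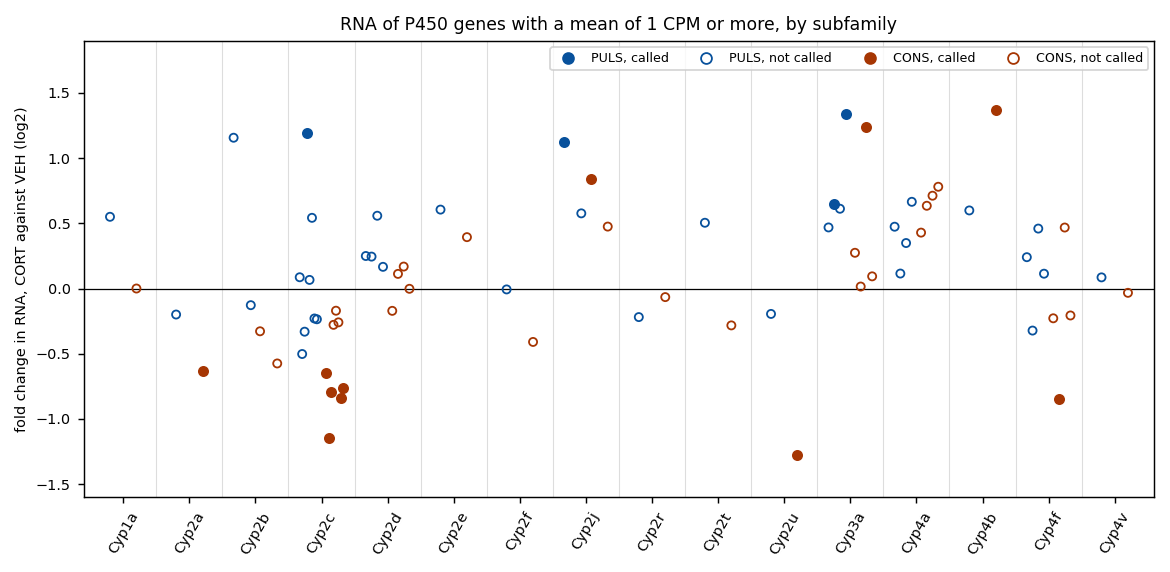
Fold change in RNA (log2, vertical axis) of CORT against the VEH group of the same infusion for the 37 members with a mean of 1 CPM or more, arranged by subfamily along the horizontal axis, with PULS in blue, CONS in orange-brown and filled points for called genes. Called Cyp2c genes lie below 0 in CONS, from -0.65 to -1.15, and the 1 called in PULS, Cyp2c22, lies at 1.19.

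The Cyp2c subfamily, which gives most of the abundant P450 RNA in these livers, was lower in constant infusion. Of its 8 members, all tested, 5 were lowered and 0 raised in CONS, with a median of -0.70, and 0 were lowered and 1 raised in PULS, with a median of -0.08. The summed level of the 8 genes was 15146, 16466 and 17019 CPM in CONS_VEH and 9605, 11902 and 8985 CPM in CONS_CORT. The pulsatile libraries gave 13961, 12298 and 13837 CPM with vehicle and 13347, 14000 and 11636 CPM with CORT. The constant groups therefore did not overlap in the summed level and the pulsatile groups did, although whether the 2 infusions differed was tested only gene by gene.

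Cyp2c13, a male-enriched steroid hydroxylase, had the most reads of any member. Its RNA was 3629, 4495 and 4748 CPM in CONS_VEH and 2558, 2533 and 2320 CPM in CONS_CORT, and fell by 0.80 on the log2 scale (SE 0.15, adjusted p = 0.00156). PULS_VEH gave 4280, 3433 and 3004 CPM and PULS_CORT 2857, 3066 and 2597 CPM, groups that did overlap, with a change of -0.33. Cyp2c12, the female-enriched steroid sulphate hydroxylase, was at 254, 264 and 172 CPM in CONS_VEH and at 131, 102 and 78.6 CPM in CONS_CORT. Every CONS_CORT library was below every CONS_VEH library, and the gene fell by 1.15 (SE 0.23, adjusted p = 0.00267). In the pulsatile groups Cyp2c12 ranged from 157 to 305 CPM with vehicle and from 151 to 185 CPM with CORT and was not called (-0.50).

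Cyp2c6v1, a constitutive drug-metabolising enzyme, was at 4489, 4125 and 3447 CPM in CONS_VEH and at 2031, 3220 and 1496 CPM in CONS_CORT, a change of -0.84 (adjusted p = 0.0161). Cyp2c11, the principal male-specific testosterone hydroxylase, gave 2505, 2561 and 3578 CPM in CONS_VEH and 1811, 1813 and 1892 CPM in CONS_CORT, a change of -0.65 (adjusted p = 0.0157). Cyp2c7, female-enriched and a retinoic acid hydroxylase, gave 1984, 2518 and 2167 CPM and then 1085, 2016 and 831 CPM, a change of -0.76 (adjusted p = 0.0476). In Cyp2c6v1 and Cyp2c7 the CONS_CORT libraries were far apart, with replicate 2 the highest of the group in both genes, and for Cyp2c7 that library lay within the CONS_VEH range. The calls were less firm than those of Cyp2c13 and Cyp2c12. Cyp2c6v1 was not called without CONS_CORT replicate 1 or 3 (adjusted p up to 0.0786), and Cyp2c11 not without CONS_VEH replicate 3 or CONS_CORT replicate 1 (up to 0.0916). Cyp2c7 was not called without any 1 of 5 of the 6 libraries. Its change ranged from -0.51 to -1.21 over all 6 fits, including the 1 that kept the call. The other members were not called in CONS, with -0.17 for the epoxygenase Cyp2c23, -0.28 for Cyp2c22 and -0.26 for Cyp2c24.

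Cyp2c22 was the member whose RNA response differed between the infusions. PULS_VEH libraries were at 844, 640 and 1020 CPM and PULS_CORT libraries at 2310, 1840 and 1578 CPM, so that every CORT library was higher, and the gene rose by 1.19 (SE 0.17, adjusted p = 0.000581). CONS_VEH libraries were at 1306, 1315 and 1441 CPM and CONS_CORT libraries at 1008, 1200 and 1141 CPM. The constant response less the pulsatile response was -1.47 (SE 0.24, adjusted p = 0.0416). This was the only member called in that comparison, in which 0.0213% of all genes were called in the same direction, and 7 of the 12 fits that left out a library did not call it (adjusted p up to 0.162), while its difference kept between -1.31 and -1.64. The PULS_VEH libraries were themselves all below the CONS_VEH libraries, by 0.70 (SE 0.17, adjusted p = 0.278).

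The vehicle groups of the 2 infusions were also compared directly, because each response is measured from its own VEH group. No member was called, as for 0% of all genes with edgeR. An unadjusted p under 0.05 was found for 17 of the 44 members, beside 1286 of the 14092 genes tested. DESeq2 called Cyp2c22, Cyp3a23/3a1 and Cyp3a9, and the share of all genes that it called was not counted. In 14 of the 44 members all PULS_VEH libraries were below all CONS_VEH libraries, which was so for 6.86% of all genes. The median of PULS_VEH less CONS_VEH was -0.28 over the members and 0.01 over all genes. PULS changes of those members therefore start from a lower VEH level, and their CONS changes from a higher one. What set the VEH groups apart was not tested.

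Of the Cyp3a genes, classical steroid and drug hydroxylases under Nr1i2, Cyp3a9 and Cyp3a23/3a1 were raised in PULS and Cyp3a62 in CONS, out of 4 members, all tested. Cyp3a9 was at 20.5, 19.8 and 31.7 CPM in PULS_VEH and at 72.8, 60.6 and 47.7 CPM in PULS_CORT, a rise of 1.34 (SE 0.29, adjusted p = 0.012). Its constant groups overlapped, at 36.5 to 79.3 CPM with vehicle and 47.6 to 83.7 CPM with CORT. Cyp3a23/3a1 was at 1438, 1273 and 1268 CPM in PULS_VEH and at 2320, 2275 and 1655 CPM in PULS_CORT, a rise of 0.65 (SE 0.16, adjusted p = 0.0289), and ranged from 1826 to 2732 CPM in the 6 constant libraries. For both genes the PULS_CORT libraries thus lay within or below the range of the constant libraries, and PULS_VEH below it. Cyp3a23/3a1 was not called without PULS_VEH replicate 2 or 3 or PULS_CORT replicate 1 or 2 (adjusted p up to 0.118), and Cyp3a9 not without PULS_VEH replicate 2 or PULS_CORT replicate 1 (up to 0.0592).

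Cyp3a62, the form also expressed in intestine, was at 11.1, 10.4 and 18.3 CPM in CONS_VEH and at 40.6, 22.7 and 31.3 CPM in CONS_CORT, a rise of 1.24 (SE 0.23, adjusted p = 0.00176). In PULS its values were 11.2, 16.4 and 13.3 CPM and then 24.3, 20.0 and 17.9 CPM, groups that did not overlap, but the change of 0.61 was not called. Cyp3a18, a male-enriched testosterone hydroxylase, was not called in RNA, at 594 to 1148 CPM in PULS_VEH, 691 to 1384 CPM in PULS_CORT, 1079 to 1318 CPM in CONS_VEH and 1104 to 1628 CPM in CONS_CORT.

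Cyp2j10, of a subfamily whose enzymes epoxidise arachidonic acid, was raised by both infusions. Its RNA was 109, 144 and 120 CPM in PULS_VEH and 233, 301 and 281 CPM in PULS_CORT, a rise of 1.13 (SE 0.18, adjusted p = 0.00197). CONS_VEH gave 135, 152 and 192 CPM and CONS_CORT 247, 233 and 375 CPM, a rise of 0.84 (SE 0.18, adjusted p = 0.00559). No VEH library reached any CORT library in either infusion, and no left-out library ended either call. Its neighbour Cyp2j4 moved by 0.58 in PULS and 0.47 in CONS and fell short of the 1.5-fold threshold, while Cyp2j16 had too few reads to be tested.

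Cyp4b1, an enzyme best known from lung, was low but clearly higher in the constant CORT libraries, at 8.43, 7.49 and 7.78 CPM in CONS_VEH and 23.4, 20.1 and 18.4 CPM in CONS_CORT, a rise of 1.37 (SE 0.22, adjusted p = 0.000631). Its pulsatile groups overlapped, at 7.43 to 12.03 CPM with vehicle and 9.40 to 18.9 CPM with CORT. The peroxisome proliferator-responsive fatty acid hydroxylases Cyp4a1, Cyp4a2, Cyp4a3 and Cyp4a8 were not called in either infusion. Their changes were 0.43, 0.63, 0.71 and 0.78 in CONS and 0.47, 0.11, 0.35 and 0.66 in PULS. Cyp4a3 was at 207, 232 and 320 CPM in CONS_VEH and at 433, 500 and 309 CPM in CONS_CORT, so a single CORT library kept the groups from separating.

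Cyp2a1, a steroid 7-alpha-hydroxylase, was lowered in CONS, at 1411, 1263 and 1337 CPM with vehicle and 802, 843 and 938 CPM with CORT, a change of -0.63 (SE 0.11, adjusted p = 0.00118). PULS_VEH gave 1066, 1138 and 1060 CPM and PULS_CORT 887, 1026 and 931 CPM, groups that did not overlap, but the change of -0.20 was not called. Cyp2u1, a widely expressed fatty acid hydroxylase, was low, at 14.5, 15.2 and 11.9 CPM in CONS_VEH and 4.87, 7.32 and 4.66 CPM in CONS_CORT, a change of -1.28 (SE 0.23, adjusted p = 0.00115). Its PULS_VEH libraries, at 5.98, 8.87 and 11.2 CPM, were all below CONS_VEH. PULS_CORT gave 7.70, 7.42 and 7.46 CPM, and the change of -0.195 was not called. Cyp4f39, whose human counterpart makes omega-hydroxylated skin lipids, was at 50.5, 29.3 and 42.2 CPM in CONS_VEH and at 20.3, 27.7 and 19.9 CPM in CONS_CORT, a change of -0.85 (adjusted p = 0.00977) that was not called without CONS_VEH replicate 1 or CONS_CORT replicate 3 (adjusted p up to 0.0563).

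**Figure D2:**
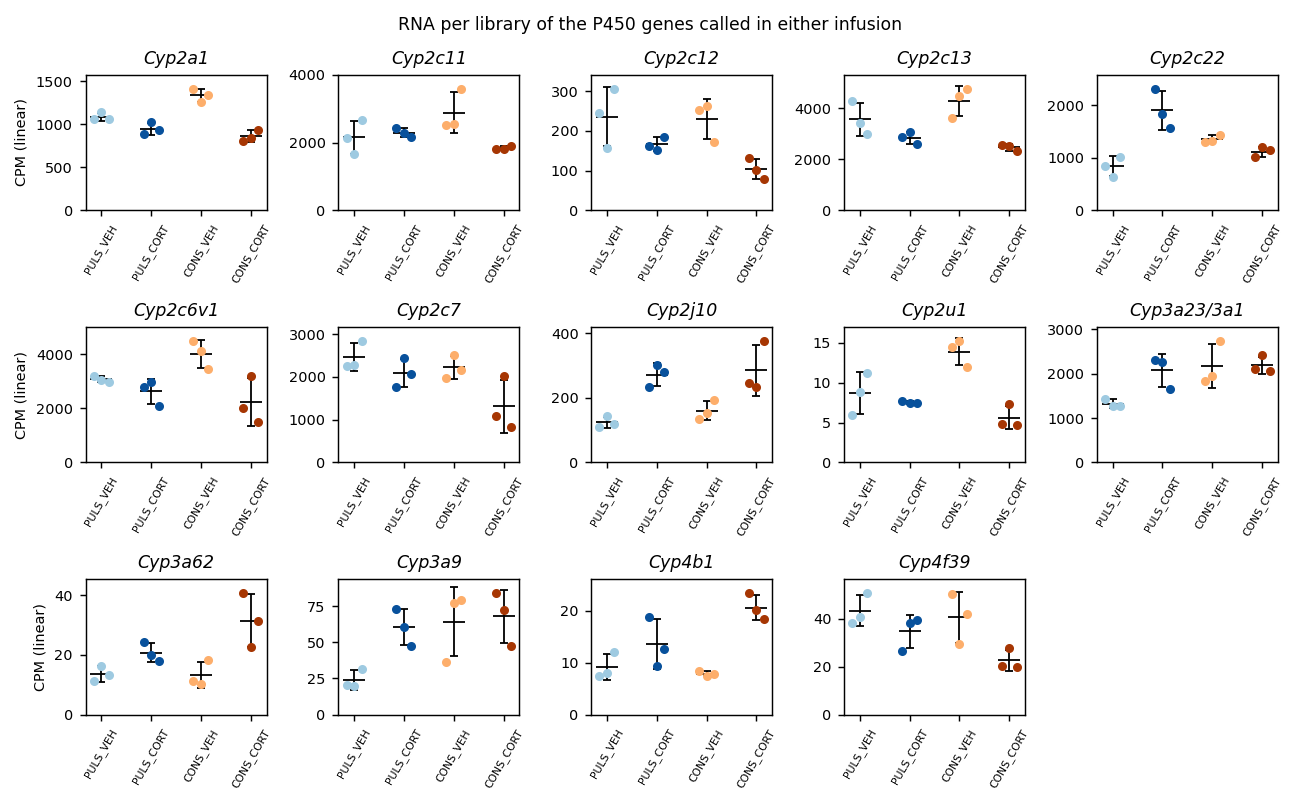
RNA level (CPM, linear axes from 0) of the 14 members called in either infusion, with 1 point per library, 3 libraries a group along the horizontal axis, and bars for the mean and SD. Cyp2j10 is higher in CORT than in VEH libraries in both infusions, and Cyp2c22 is highest in PULS_CORT, at 1578 to 2310 CPM.

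Other abundant or textbook members were not called. Cyp2e1, which oxidises ethanol and other small molecules, was at 1250, 1670 and 1107 CPM in PULS_VEH and 2095, 2298 and 1731 CPM in PULS_CORT, groups that did not overlap, with a change of 0.61 that DESeq2 and 2 other settings called and edgeR did not. Cyp1a2, the liver form of the Ahr-responsive Cyp1a enzymes, was at 157 to 252 CPM in PULS_VEH and 255 to 395 CPM in the other 9 libraries, with a change of 0.55 in PULS and a mean in CONS_CORT equal to that of CONS_VEH within 1 CPM. Cyp1a1 had 14 reads in all 12 libraries. The Nr1i3 target Cyp2b2 was scattered within groups, from 5.85 to 35.5 CPM in PULS_VEH and from 18.6 to 140 CPM in CONS_CORT. The 4 Cyp2d genes, drug-metabolising forms, changed by 0.17 to 0.56 in PULS and by -0.17 to 0.17 in CONS. The 7 tested Cyp4f genes included 1 called gene, Cyp4f39, and the leukotriene hydroxylase Cyp4f1 stayed between 391 and 548 CPM in all 12 libraries.

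Partners and regulators of P450 enzymes were described from a list of 35 genes, of which 31 were tested in RNA. In PULS 2 were raised and 1 lowered, and in CONS 6 were raised and 1 lowered. Por, the electron donor of all microsomal P450 enzymes, was at 48.5 to 69.9 CPM in PULS_VEH, 167 to 228 CPM in PULS_CORT, 58.6 to 71.3 CPM in CONS_VEH and 377 to 493 CPM in CONS_CORT, a rise of 1.68 in PULS (adjusted p = 2.04e-05) and of 2.71 in CONS (adjusted p = 4.56e-08). Nr1i2 rose by 0.97 in PULS and 1.62 in CONS, and the other genes raised in CONS were Nr1i3 (1.03), Ppara (1.5), Ahr (0.61) and the clock repressor Nr1d1 (0.88). Ghr, the growth hormone receptor, fell by 1.17 in PULS and 1.02 in CONS. None of the 31 was called in the difference between the responses, so the larger CONS values were not shown to differ from the PULS values.

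Elongating polymerase was measured as ChIP of RNA polymerase II phosphorylated at serine 2 (pSer2 Pol2) over the first 10 kb of transcripts, on a log2 scale with input tags subtracted. A gene was represented by its region with the highest mean over all 10 libraries. At PEAK_140, 1 of the 44 members was raised and 6 were lowered against VEH, beside 0.365% and 0.624% of the 38315 regions tested. The lowered genes were Cyp2a1, Cyp2c6v1, Cyp2c13, Cyp2c12, Cyp4f1 and Cyp3a18, and the raised gene was Cyp2j10. At NADIR_180 none was called by limma, as for nearly all regions (0.00522% called). There, 7 of the 44 members had an unadjusted p under 0.05, beside 555 of the 38315 regions. At CONS_140, 1 member was raised (0.592% of all regions) and 1 lowered (0.196%). At CONS_180 none was called (0.214%), and 12 of the 44 members had an unadjusted p under 0.05, beside 1125 of the 38315 regions. The median change over all regions was 0.15 at CONS_140, beside 0.09 over the members, and within 0.1 of 0 in the other 3 comparisons. All 4 comparisons share the same 2 VEH libraries.

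Cyp2a1 carried the largest fall. Its 2 VEH libraries were at 9.91 and 9.77, PEAK_140 at 6.47 and 6.97, NADIR_180 at 9.17 and 9.46, CONS_140 at 9.05 and 8.71 and CONS_180 at 8.34 and 8.28. The PEAK_140 libraries were thus below all others, by 3.12 on the log2 scale against VEH (SE 0.31, adjusted p = 0.00128) and by 2.60 against NADIR_180 (adjusted p = 0.00423). Other start sites filed under the same gene name, such as the region from chr1:83711251 to 83721251 of Rnor_6.0, also fell at PEAK_140, by 3.64 (adjusted p = 0.0249). Transcripts under this name start over 91004 b, so the record may join neighbouring Cyp2a genes.

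Of the Cyp2c genes, 3 fell at PEAK_140, each with both libraries below both VEH libraries. Cyp2c6v1 was at 9.36 and 9.48 in VEH and at 6.23 and 7.24 at PEAK_140, a change of -2.68 (SE 0.37, adjusted p = 0.00601). Its NADIR_180, CONS_140 and CONS_180 libraries ranged from 8.15 to 8.85, also below VEH but not called. Cyp2c13 was at 10.51 and 10.79 in VEH and at 7.69 and 8.59 at PEAK_140, a change of -2.51 (SE 0.35, adjusted p = 0.00650). In the same 3 other groups Cyp2c13 ranged from 9.08 to 10.16, again below VEH and not called. Cyp2c12 was at 8.13 and 7.87 in VEH, at 5.38 and 6.29 at PEAK_140, and at 6.2 and 5.68 at CONS_140, changes of -2.17 (adjusted p = 0.0232) and -2.06 (adjusted p = 0.0359). Cyp2c12 was the member lowered at CONS_140. Its NADIR_180 libraries, at 7.19 and 6.70, and CONS_180 libraries, at 6.92 and 7.05, were also below VEH but not called. Cyp2c6v1, Cyp2c13, Cyp2c12 and Cyp2a1 are also among those whose RNA was lowered in CONS and was not called in PULS. Their polymerase calls against VEH were at 140 min, however, and the RNA was taken at 180 min. At NADIR_180 and CONS_180, the chromatin groups of the same time as the RNA, none of them was called against VEH. Cyp2c7, also lowered in CONS RNA, was not called in polymerase but was lowest at CONS_180, at 6.47 and 6.10 beside 8.17 and 7.71 in VEH.

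Cyp3a18 was at 8.12 and 8.18 in VEH, 6.00 and 6.22 at PEAK_140 and 7.78 to 8.39 in the other 6 libraries. The gene fell by 2.04 against VEH (SE 0.31, adjusted p = 0.0106) and was lower at PEAK_140 than at NADIR_180 (-1.83, adjusted p = 0.0287). Cyp4f1 was at 8.51 and 8.15 in VEH and 5.81 and 6.15 at PEAK_140, a change of -2.35 (SE 0.44, adjusted p = 0.0307), with NADIR_180 between them at 7.88 and 7.56. Neither gene was called in RNA.

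Cyp2j10 rose at PEAK_140, to 8.35 and 8.52, from VEH libraries that were far apart at 6.13 and 2.90. The change was 3.92 (SE 0.76, adjusted p = 0.0365), and it was not called without VEH replicate 2 (2.31) or either PEAK_140 library. NADIR_180 was at 4.96 and 4.27, within the VEH range, CONS_140 at 6.97 and 6.56, and CONS_180 at 7.82 and 7.94. Cyp1a2 was the member raised at CONS_140, at 6.35 and 5.18 in VEH and 9.29 and 8.82 at CONS_140, by 3.29 (SE 0.42, adjusted p = 0.00508). PEAK_140 gave 7.27 and 7.89, NADIR_180 7.96 and 8.24 and CONS_180 8.06 and 8.25, all above VEH but not called, at 1.82, 2.34 and 2.39. With the replicate number as a block, Cyp1a2 was also called at CONS_180 (adjusted p = 0.0429), and Cyp2c23 (-1.49), Cyp2d2 (-1.46) and Cyp4a2 (-1.95) joined those called at PEAK_140. How many of all regions were called with that block was not counted.

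These calls rest on 2 libraries a group. Without VEH replicate 2 none of the 7 was called at PEAK_140, without VEH replicate 1 2 were, without PEAK_140 replicate 1 1 was and without PEAK_140 replicate 2 4 were, while every fold change kept its sign, with Cyp2a1 between -2.87 and -3.37. At CONS_140 more members were called without CONS_140 replicate 2, and fewer without VEH replicate 2 or CONS_140 replicate 1. The shares of all regions called in these fits were not counted.

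Peak and trough of the pulses differed directly in 3 members, all lower at PEAK_140, Cyp2a1, Cyp3a18 and Cyp2c6v1 (-1.95, adjusted p = 0.048), beside 0.238% of all regions. Without PEAK_140 replicate 1 or NADIR_180 replicate 1 none of them was called, and without NADIR_180 replicate 2 1 was. Cyp2c22 went the other way, at 10.05 and 10.56 at PEAK_140 and 9.21 and 8.87 at NADIR_180, a difference of 1.27 that was not called (adjusted p = 0.117). CONS_180 gave 10.45 and 10.64 for Cyp2c22, 1.5 above NADIR_180, also not called (adjusted p = 0.0963). No member was called by limma between CONS_180 and NADIR_180 (0.17% of all regions) or between PEAK_140 and CONS_140 (0.0261%). An unadjusted p under 0.05 was found for 5 and 11 of the 44 members, beside 876 and 3336 of the 38315 regions.

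With the replicate block, 5 members were lower at PEAK_140 than at CONS_140, namely Cyp2a1 (-2.16), Cyp3a18 (-2.10), Cyp2c13 (-1.93), Cyp2d2 (-1.65) and Cyp2e1 (-1.57), with adjusted p from 0.0263 to 0.0359. The median over all regions was itself -0.26 in that comparison. More members were called in it without CONS_140 replicate 2. The shares of all regions called with the block or in that fit were not counted. The difference PEAK_140 less NADIR_180, minus the difference CONS_140 less CONS_180, was called for Cyp2a1 (-3.17, SE 0.44, adjusted p = 0.0385), as for 0.0209% of all regions, beside a median of -0.30 over all regions. With the block Cyp2e1 was called as well (-2.46, adjusted p = 0.0463). Cyp2e1 was at 8.79 and 9.57 at PEAK_140, 10.57 and 10.70 at NADIR_180, 10.83 and 10.67 at CONS_140 and 9.73 and 9.76 at CONS_180. More members were called in this comparison without CONS_140 replicate 2, again with no share of all regions counted. In 7 of the 8 fits that left out a library Cyp2a1 was not called.

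**Figure D3:**
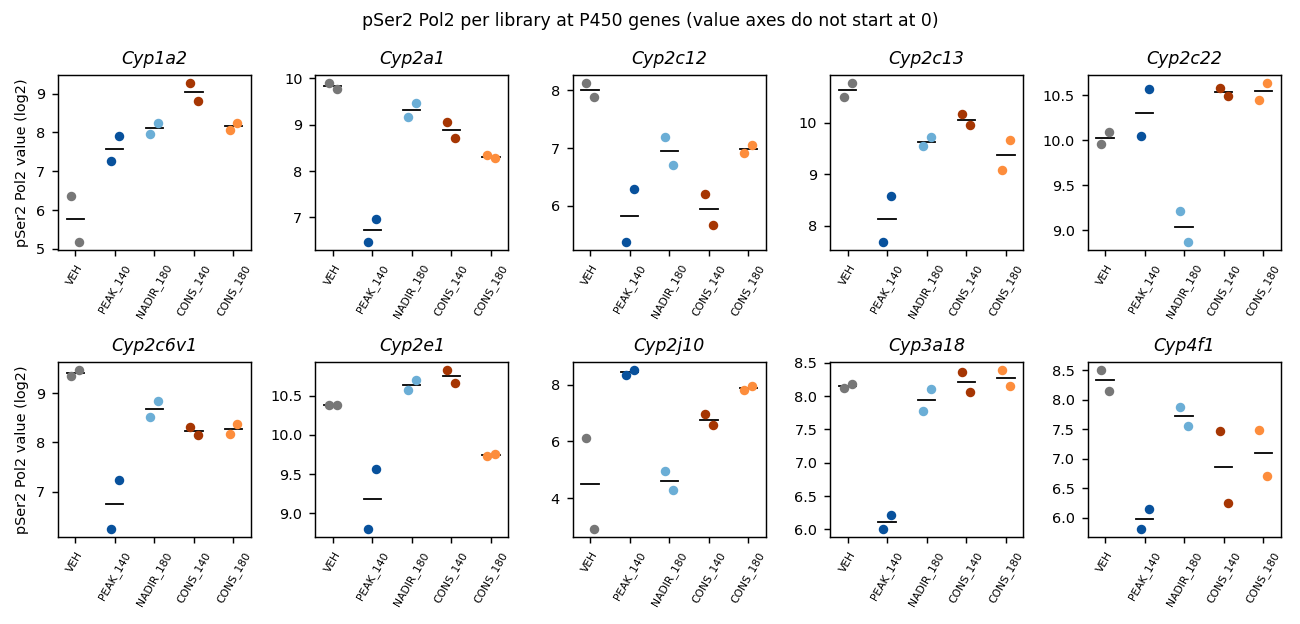
pSer2 Pol2 value (log2, input subtracted, vertical axes that do not start at 0) at the 8 called members and at Cyp2c22 and Cyp2e1, with 1 point per library, 2 libraries a group along the horizontal axis and a line at their mean. Cyp2a1 and Cyp3a18 are lowest at PEAK_140, at 6.47 and 6.97 and at 6.00 and 6.22, and Cyp2j10 is highest there, at 8.35 and 8.52.

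Polymerase values can be compared between genes only per length of the counted region. Per kb, the VEH mean was highest at Cyp2c13 (7.33 on the log2 scale), Cyp2d2 (7.09) and Cyp2e1 (7.06). Some genes with much RNA had little or no polymerase signal. Cyp2c11, with 1674 to 3578 CPM of RNA, had values of 0.20 to 0.45 in the 10 polymerase libraries, and Cyp3a23/3a1, with 1268 to 2732 CPM, had no tags in any. Of the members raised or lowered in RNA, Cyp3a9, Cyp3a62, Cyp4b1 and Cyp2u1 were also at or near the lowest value of their region in most polymerase libraries, so their polymerase response could not be described.

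Among the 35 partners and regulators, Por was raised at PEAK_140 (3.33, adjusted p = 0.00196), at CONS_140 (3.23) and at CONS_180 (2.49), with values of 6.44 and 5.63 in VEH, 9.37 and 9.34 at PEAK_140 and 6.33 and 5.65 at NADIR_180. Nr1i2 (1.89), Nr1i3 (2.09) and the liver factor Cebpb (3.88) were raised at CONS_140 and Socs2, a target of growth hormone signalling, fell by 3.99. Alas1, the first enzyme of haem synthesis, was higher at PEAK_140 than at NADIR_180 (1.84, adjusted p = 0.0145) and higher at CONS_180 than at NADIR_180 (1.75, adjusted p = 0.0380). In all, 31 of the 35 were tested, and 1, 0, 4 and 1 were raised and 0, 0, 1 and 0 lowered at PEAK_140, NADIR_180, CONS_140 and CONS_180.

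GR binding near P450 genes was read from 32 of the 3981 GR regions, those centred within 50 kb of the start of a member. They lay near 26 of the 52 genes. The authors made the list of 3981 by merging the peaks of all groups, called in these same libraries. A region listed through a peak in a group tends to be high in that group. Its rise there, and the p-value of that rise, are therefore partly built in. None of the 32 was a peak in VEH or NADIR_180, 28 were at PEAK_140, 16 at CONS_140 and 26 at CONS_180, as the authors called peaks with replicate agreement. These are 0%, 87.5%, 0%, 50% and 81.2% of the 32 for VEH, PEAK_140, NADIR_180, CONS_140 and CONS_180, beside 2.91%, 80.6%, 1.81%, 43.3% and 61% of all GR regions. Against VEH, 28 of the 32 were raised at PEAK_140 (78.6% of all GR regions), 2 at NADIR_180 (7.44%), 22 at CONS_140 (64.7%) and 24 at CONS_180 (67.9%), and 0 were lowered. Apart from the peaks at CONS_180 (81.2% beside 61%), the shares of P450 regions were near those of all regions. So were the median changes, 4.59 against 4.17 at PEAK_140, 0.94 against 0.84 at NADIR_180, 3.72 against 3.38 at CONS_140 and 3.35 against 3.46 at CONS_180. Between PEAK_140 and NADIR_180 24 were higher at the peak (68.8%), and between CONS_180 and NADIR_180 14 were higher in CONS (49.6%). Between PEAK_140 and CONS_140 0 were called by limma (0.0502%). There, 3 of the 32 had an unadjusted p under 0.05, beside 560 of the 3981 GR regions. The difference PEAK_140 less NADIR_180, minus CONS_140 less CONS_180, was called in 14, all positive (43.6%).

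The size of a GR change depends on the common shift. When each library was centred on its own median over all regions, 4 of the 32 regions were called at PEAK_140, all lowered, and 0 of the 2 at NADIR_180 were left. How many of all GR regions were called after centring was not counted, so the 4 are not set against a background. The change from VEH switched sign in 16 of the 32 regions for the pulse peak, 11 for the trough and 21 for either time of the constant infusion. The values that follow are on the deposited scale and include this shift. Whether the shift is technical or a GR response shared by most regions was not tested. Values of about -1 to 0 are the low end of the scale.

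**Figure D4:**
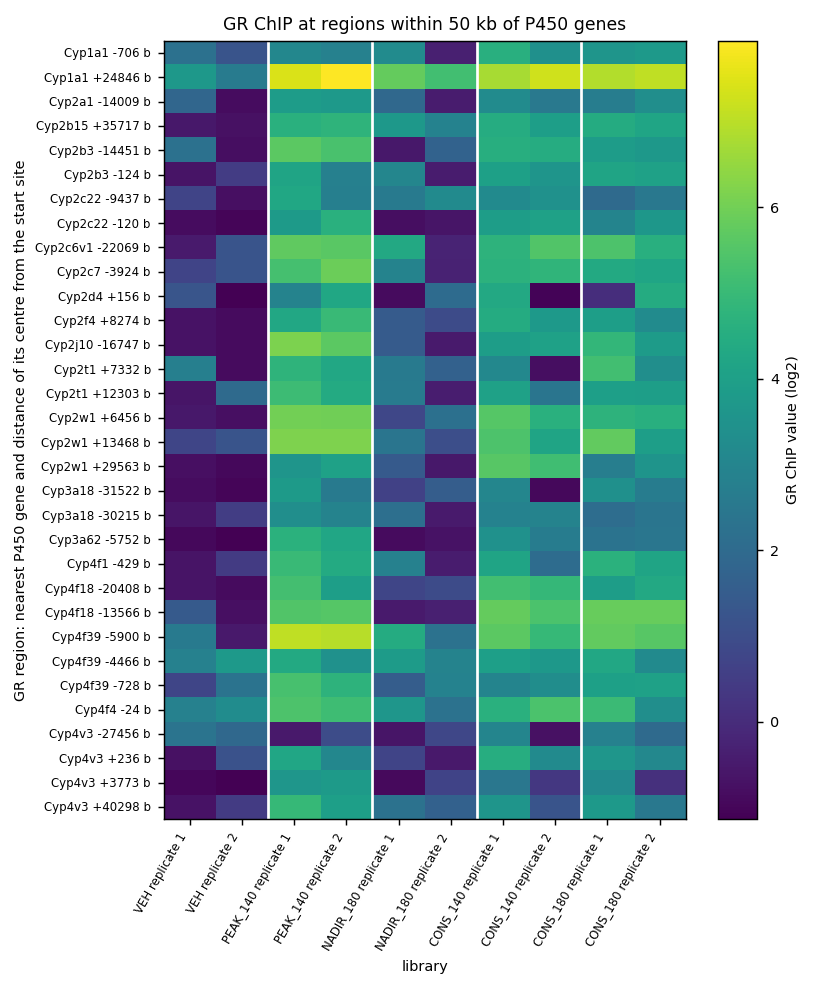
GR ChIP value (log2, colour scale) in each of the 10 libraries along the horizontal axis at the 32 GR regions within 50 kb of P450 genes, labelled by the nearest member and the distance of the region's centre from its start site in bases, negative being upstream. On the deposited scale, which is not centred, most rows are dark in VEH and NADIR_180 and bright at PEAK_140, and the region at 24846 b of Cyp1a1 is brightest, at 7.44 and 7.94.

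Regions at a start site came first. Distances are from the start site to the centre of the region, negative being upstream. The region at -120 b of Cyp2c22 (chr1:259287492-259288117, Rnor_6.0, promoter by the file's annotation) was at -0.85 and -1.02 in VEH, 3.81 and 4.61 at PEAK_140, -0.78 and -0.62 at NADIR_180, 3.93 and 4.08 at CONS_140 and 2.97 and 3.66 at CONS_180. It was thus at the low end in the VEH and trough libraries and well above in the other 6, with a rise of 5.15 at PEAK_140 (adjusted p = 0.000147) and a difference of 4.91 between peak and trough (adjusted p = 0.000459). Another region, at -9437 b, did not share this trough, at 2.59 and 3.22 at NADIR_180 against 4.29 and 2.79 at PEAK_140.

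The region at -429 b of Cyp4f1 was at -0.67 and 0.46 in VEH, 5.03 and 4.43 at PEAK_140, 2.86 and -0.45 at NADIR_180, 4.18 and 2.08 at CONS_140 and 4.66 and 4.15 at CONS_180, a rise of 4.84 at PEAK_140 (adjusted p = 0.00394), while the polymerase at this gene was lowered there. The region at -124 b of Cyp2b3, a Cyp2b form not inducible by phenobarbital, was at -0.66 and 0.47 in VEH and 4.18 and 2.82 at PEAK_140, a rise of 3.59 (adjusted p = 0.0134), and the 2 NADIR_180 libraries differed widely, at 3.04 and -0.44. Regions also lay at -24 b of Cyp4f4 (rise of 2.19 at PEAK_140), -728 b of Cyp4f39 (3.48) and 236 b of Cyp4v3 (3.44), all called. Those at -706 b of Cyp1a1 (1.21) and 156 b of Cyp2d4 (3.52) were not called at PEAK_140, the Cyp2d4 region being at -1.05 in 1 CONS_140 library and 4.34 in the other.

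The promoters of Cyp2c22, Cyp2b3 and Cyp4f1 are shown because a GR region raised at PEAK_140 was centred at -120, -124 and -429 b of their start in the tables, and that of Cyp2c11 because it is the male-specific gene lowered in RNA and had no GR region within 50 kb. They are the 250 bases before the start site in RefSeq's GRCr8 assembly, 5′ to 3′ on the gene's strand, with capitals marking the 6-base GR site (AGAACA, or TGTTCT on the other strand). They were taken by gene symbol from another assembly than the tables, so a base cannot be placed within a GR region. Cyp2c11 had much RNA but polymerase values of only 0.20 to 0.45 in the 10 libraries. Absent GR binding and ChIP reads lost at this gene therefore cannot be told apart.
Cyp2c22 (chr1:248980768-248981017, minus strand): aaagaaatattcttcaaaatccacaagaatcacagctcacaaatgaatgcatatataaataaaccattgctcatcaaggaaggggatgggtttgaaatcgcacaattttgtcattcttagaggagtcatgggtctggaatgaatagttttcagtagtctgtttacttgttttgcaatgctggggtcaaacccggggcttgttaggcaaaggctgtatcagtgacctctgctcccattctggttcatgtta
Cyp2b3 (chr1:90780242-90780491, plus strand): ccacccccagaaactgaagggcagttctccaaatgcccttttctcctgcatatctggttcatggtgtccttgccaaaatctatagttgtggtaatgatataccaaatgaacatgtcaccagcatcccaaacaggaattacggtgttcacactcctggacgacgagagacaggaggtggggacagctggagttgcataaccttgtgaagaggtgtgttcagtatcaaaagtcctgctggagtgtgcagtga
Cyp4f1 (chr7:12672554-12672803, minus strand): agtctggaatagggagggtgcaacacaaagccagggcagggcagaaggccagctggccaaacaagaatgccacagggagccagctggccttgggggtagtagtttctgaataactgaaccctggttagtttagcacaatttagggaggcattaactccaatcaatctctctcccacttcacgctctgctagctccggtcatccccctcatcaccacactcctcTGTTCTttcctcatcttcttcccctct
Cyp2c11 (chr1:246174966-246175215, plus strand): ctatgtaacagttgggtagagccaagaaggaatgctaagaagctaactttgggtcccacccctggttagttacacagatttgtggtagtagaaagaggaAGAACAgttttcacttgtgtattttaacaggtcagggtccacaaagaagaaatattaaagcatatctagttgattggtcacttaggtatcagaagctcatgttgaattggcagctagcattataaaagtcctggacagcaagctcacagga

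RefSeq promoters of 300 bases, from 250 before to 50 after the start, were matched for 46 of the 52 members. The full GR element, GNACA and TGTNC parted by 3 bases, was in 0 of the 46 and in 0.439% of all 33469 promoters of that length. The 6-base site was in 12 of the 46 and in 20.7% of all promoters, and among the 4 shown it is in Cyp4f1 and Cyp2c11 and not in Cyp2c22 or Cyp2b3. No match says only that these letters are not in that window.

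More distant regions included the strongest rises. The region at -16747 b of Cyp2j10, the gene raised in RNA and polymerase, was at -0.70 and -0.89 in VEH, 6.14 and 5.65 at PEAK_140, 1.47 and -0.46 at NADIR_180, 3.91 and 4.05 at CONS_140 and 4.89 and 3.85 at CONS_180. Its rise was 6.69 at PEAK_140 (adjusted p = 0.000104), 4.77 at CONS_140 and 5.16 at CONS_180, and the peak was 5.40 above the trough (adjusted p = 0.000634). Near Cyp1a1 and Cyp1a2, the region at 24846 b of Cyp1a1 was at 3.71 and 2.64 in VEH, 7.44 and 7.94 at PEAK_140, 5.79 and 5.19 at NADIR_180, 6.76 and 7.28 at CONS_140 and 6.90 and 7.07 at CONS_180. This region and the one at 35717 b of Cyp2b15 were the 2 still raised at NADIR_180, by 2.32 (adjusted p = 0.0104) and 3.93 (adjusted p = 0.00368).

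Around Cyp2w1, whose RNA had too few reads to be tested, the regions at 6456 and 13468 b rose by 6.66 and 5.21 at PEAK_140 and the other, at 29563 b, was highest at CONS_140, at 5.58 and 5.15. Near Cyp4f39 the region at -5900 b rose by 5.96 at PEAK_140, while the region at -4466 b stayed between 2.86 and 4.38 in all 10 libraries and was called in no comparison. The region at -5752 b of Cyp3a62 was at -0.92 and -1.10 in VEH, 4.66 and 4.25 at PEAK_140, -0.86 and -0.70 at NADIR_180, 3.46 and 2.68 at CONS_140 and 2.32 and 2.42 at CONS_180, a rise of 5.47 at PEAK_140 (adjusted p = 0.000112). That region was listed through a peak at PEAK_140 alone, so this rise and its p-value are partly built in. Regions at -13566 and -20408 b of Cyp4f18 rose by 5.19 and 5.35, and an intronic one at 8274 b of Cyp2f4 by 5.44. The file names another gene than the P450 member as nearest for 14 of the 32 regions, among them AABR07049302.1 for the Cyp2j10 region, RF00026 for those of Cyp2c6v1 and of Cyp1a1 at 24846 b, and AABR07035339.1 for both Cyp3a18 regions. It also names Gpr146 and Mir339 for the Cyp2w1 regions at 29563 and 13468 b, RF00015 and Tpm4 for those of Cyp4f18, Pglyrp2 for those at -5900 and -4466 b of Cyp4f39, Egln2 for both Cyp2t1 regions and Klkb1 for that at 40298 b of Cyp4v3. Both Cyp4f18 distances are from another start site than that of its coding region in the polymerase data. The region at -27456 b of Cyp4v3 was the 1 region with a negative change at PEAK_140 (-1.91, not called).

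Of the 6 genes with lowered polymerase at PEAK_140, 3 had a GR region within 50 kb of the start of the coding region used for polymerase. Cyp4f1 had the region at its promoter. Cyp2a1 had 1 region at -14009 b (1.85 and -0.82 in VEH, 3.88 and 3.79 at PEAK_140, a rise of 3.32, adjusted p = 0.0164). The authors called that region a peak at CONS_180 only, not at PEAK_140, and its VEH libraries were far apart. Cyp3a18 had 2, at -30215 and -31522 b (3.20 and 4.13), the one at -30215 b being listed through a peak at PEAK_140 alone. The Cyp2c6v1 region at -22069 b (rise of 5.29) was measured from another start site of that name and lay 148.2 kb from the start of the coding region whose polymerase fell. Cyp2c12 and Cyp2c13 had none. Of the other Cyp2c genes lowered in CONS RNA, Cyp2c7 had 1 region at -3924 b (0.75 and 1.21 in VEH, 5.26 and 5.89 at PEAK_140, a rise of 4.60, adjusted p = 0.00175). Cyp2c11 had none, but its polymerase signal was also near absent, so lost ChIP reads cannot be told apart from absent binding. Distances hold for the build of the tables, which places Cyp2c6v1, Cyp2c7 and Cyp2b15 away from the clusters in which GRCr8 has Cyp2c7 and Cyp2b15.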

How the data were processed

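Livers of adrenalectomised rats were assayed by ChIP-Seq for GR and pSer2 Pol2 (10 libraries each) and by RNA-Seq (12 libraries). The authors trimmed ChIP reads with Trimmomatic 0.36, aligned them to rn6, removed duplicates, called GR peaks over input and subtracted input tags from both GR and pSer2 Pol2 regions with HOMER 4.9.1; the deposited GR and pSer2 Pol2 values are on a log2 scale with total tags per library in the file headers. RNA counts were deposited as exonic read counts per gene from featureCounts 1.6.2 (Rnor_6.0). The sources differ on whether GR tags were scaled to all tags or to tags in regions. Library inputs were not analysed here, and the authors' fold change and p-value columns were not used.

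Counts of genes with more than 10 reads were tested with edgeR 4.0.16 (quasi-likelihood, TMM) over all 12 libraries, and log2 values with limma 3.58.1 (variance trend) over all 10, each with Benjamini-Hochberg adjustment over all features. The SE of an edgeR change is its size divided by the square root of F. Both fits were tested on simulated data. Members, lists and tests were chosen with earlier results of these data known. Named genes were all called members (the 12 with the largest change where more were called), the 10 with most reads and textbook markers. Cyp2b1, Cyp2a2, Cyp3a2 and Cyp2j3 of that marker list had no entry under their names. Cyp2c23, Cyp2c24, Cyp2d2, Cyp2j4, Cyp2f4 and other members outside the rule were named after their values were seen.

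Same-numbered libraries deviated together in pSer2 Pol2 (12 correlations from 0.155 to 0.553), and not in RNA (-0.0488 to 0.081) or GR (-0.0265 to 0.0718). In chromatin the 2 libraries of a group deviate equally in opposite directions, so these are not 12 separate values. The main fits, with their calls and p-values, were not paired. The replicate number entered only as a block in an alternative setting. No source says that RNA libraries of a group came from separate extractions, and p-values measure the spread between libraries. Versions were R 4.3.3 and DESeq2 1.42.0 (used as an alternative).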

Additional observations from a re-analysis of the deposited data

Results flagged for a closer look

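For the results here a direct test between the 2 infusion patterns passed the threshold. In RNA, the constant response of Cyp2c22 less its pulsatile response was -1.47 on the log2 scale. In pSer2 Pol2, PEAK_140 less NADIR_180, minus CONS_140 less CONS_180, was -3.17 for Cyp2a1, whose level was lower at the peak than at the trough of the pulses.

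In GR binding the same difference was positive at 31 of the 32 regions and called at 14, which is 43.8% beside 43.6% of all 3981 GR regions, and the median over all regions was 3.11. After median centring, which also takes out any response shared by all GR regions, 0 were called. With 2 libraries a group, that does not show that these regions are like the rest. Near family 4 genes it was 6.18 and 2.82 at the regions at -13566 and -20408 b of Cyp4f18, 4.79 at -429 b of Cyp4f1, and 4.00 and 3.70 at -5900 and -728 b of Cyp4f39. Near Cyp2 genes it was 5.78 for Cyp2j10, 4.54 and 4.06 at 13468 and 6456 b of Cyp2w1, 4.22 at -120 b of Cyp2c22, 4.17 at -14451 b of Cyp2b3, 3.79 for Cyp2c7 and 2.97 for Cyp2f4. The other regions were that of Cyp3a62, at 4.53, and that at 24846 b of Cyp1a1, at 2.17. As the Cyp3a62 region was listed through a peak at PEAK_140 alone, its difference is partly built in.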

How the results depend on the processing

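Counts below are of P450 genes or nearby GR regions called. The shares of all features called in the alternative fits, or without the fold threshold, were not counted. These counts are therefore not set against a background. In RNA, DESeq2 called 4 in the response difference and 3 in the vehicle difference, a filter of at least 1 read gave 3 and 3, and without the fold threshold PULS had 7. Centring each pSer2 Pol2 library on its median gave 12 at PEAK_140, 5 at CONS_140, 5 at CONS_180, 8 for peak against trough, 1 for CONS_180 against NADIR_180, 3 for PEAK_140 against CONS_140 and 4 for time by pattern. Regions above the median mean value gave 12, 2 at CONS_180, 8 for peak against trough, 1 for CONS_180 against NADIR_180, 5 for PEAK_140 against CONS_140 and 5 for time by pattern. Without a variance trend there was 1 at CONS_140, 2 for PEAK_140 against CONS_140 and 1 for GR at NADIR_180. Fits of only the libraries compared gave 0 for pSer2 Pol2 at PEAK_140, CONS_140 and peak against trough, 0 for GR at NADIR_180 and 8 for GR CONS_180 against NADIR_180, with fewer libraries to estimate the spread.

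The replicate block changed the pSer2 Pol2 counts to 1 at CONS_180, 5 for PEAK_140 against CONS_140 and 2 for time by pattern, and moved no other count of calls, in RNA or GR included, by over 1.5 times.

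For GR, median centring gave 4 at PEAK_140, 0 at NADIR_180, 2 at CONS_140, 2 at CONS_180, 1 for peak against trough, 0 for CONS_180 against NADIR_180 and 0 for time by pattern, and regions of higher mean gave 4 at NADIR_180. Centring turned the sign of 16 of the 32 regions at PEAK_140, 11 at NADIR_180, 21 at CONS_140, 21 at CONS_180, 16 for peak against trough, 19 for CONS_180 against NADIR_180, 6 for PEAK_140 against CONS_140 and 14 for time by pattern. Among the 12 with the largest change among those called in each comparison it did so at Cyp2b3 -124 b (-0.20) and Cyp3a62 -5752 b (-0.0269) at CONS_140, at Cyp2w1 29563 b at CONS_180 (-0.0444) and against NADIR_180 (-0.18), and at Cyp2f4 8274 b in time by pattern (-0.42). With regions within 10 kb, 14 were called at PEAK_140, 0 at NADIR_180, 11 at CONS_140, 11 at CONS_180, 11 for peak against trough, 7 for CONS_180 against NADIR_180 and 8 for time by pattern.

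Leaving out each library in turn gave 2 to 4 in PULS RNA, 8 to 12 in CONS RNA, 0 to 3 in the response difference and 0 to 1 in the vehicle difference. For pSer2 Pol2 it gave 0 to 4 at PEAK_140, 0 to 0 at NADIR_180, 0 to 9 at CONS_140, 0 to 2 at CONS_180, 0 to 3 for peak against trough, 0 to 16 for PEAK_140 against CONS_140, 0 to 17 for time by pattern and 0 to 0 for CONS_180 against NADIR_180. For GR it gave 20 to 25 at PEAK_140, 2 to 8 at NADIR_180, 17 to 23 at CONS_140, 14 to 20 at CONS_180, 12 to 24 for peak against trough, 0 to 1 for PEAK_140 against CONS_140, 6 to 21 for CONS_180 against NADIR_180 and 5 to 21 for time by pattern. A group left with 1 library was assumed to vary like the others. The shares of all features called in the fits that left out a library were not counted, so these counts are not set against a background. The cause of these shifts was not tested. With 2 chromatin libraries a group, and VEH libraries from different times, a miss says little.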
